A study of Mus musculus with 8 samples.

Results

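Basophils were taken from single-cell RNA sequencing of mouse bone marrow cultures as the cells whose RNA carried the granule proteases and the histamine-forming enzyme of this lineage. Kept cells had 300 or more detected genes, and mitochondrially encoded genes gave no more than 10% of their UMIs (unique molecular identifiers, each standing for 1 captured RNA molecule). Members were chosen by measured values: a basophil had Prss34, Cpa3 and Hdc together at 10 or more UMIs per 10000, and Prss34 and Mcpt8 together at 10 or more. The rule found 84 basophils among 8321 kept cells with deoxycholic acid and 126 among 9063 kept cells of the media control, 210 of 17384 in all. Whole bone marrow cells had been grown for 1 week on irradiated AFT024 cells, a fibroblast line from embryonic mouse liver, in a long-term culture medium with hydrocortisone, which both groups received. The tested cultures also held deoxycholic acid, a secondary bile acid that gut bacteria make, at 35 µM, and the media control did not. The sort for lineage-negative cells came ahead of capture and sets which basophils could be seen, and the labels used here give no age, sex or strain of the mice. The labels list 4 samples in each group but the cell names carry the group alone, so each group was 1 library and no difference between the groups could be tested.

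Basophils are rare granulocytes that carry the high-affinity IgE receptor and release histamine, proteases, chemokines and interleukin 4 when the receptor is cross-linked. They arise from granulocyte-monocyte progenitors under GATA2, with C/EBP factors and interleukin 3 acting on the choice between the basophil, mast cell, eosinophil and neutrophil fates. Mouse basophils are told from mast cells by the proteases encoded by Mcpt8 and Prss34 and by the lack of mast cell chymases and tryptases.

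Basophils had a median of 5653.5 UMIs and 1742.5 genes per cell with deoxycholic acid, and 6911.5 UMIs and 2074.5 genes in the media control. The other kept cells were deeper, at medians of 14883 UMIs with deoxycholic acid and 19319 in the media control. Summed over basophils there were 712990 UMIs with deoxycholic acid and 1330614 in the media control, and levels below are CPM, UMIs of a gene per 1000000 UMIs of these sums. All intervals are 95% intervals, exact Poisson or exact binomial (Clopper-Pearson), and cover counting error alone. The 2 libraries had 25 barcodes in common; 1 media control basophil had such a barcode, and none of the deoxycholic acid basophils did.

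Some members carried a large amount of neutrophil RNA, which bears on every summed value. S100a8 and S100a9, the calprotectin genes that dominate neutrophil RNA, together reached 200 or more UMIs per 10000 in 13 of 84 basophils with deoxycholic acid and in 16 of 126 in the media control. The other members stood far below: the median over all basophils was 21.3 per 10000 with deoxycholic acid and 21.8 in the media control, against 1719 and 1723 in the other kept cells of the same libraries. These S100-rich members had medians of 19871 UMIs with deoxycholic acid and 22952 in the media control, against 4746 and 6124 in the remaining basophils, and they held 36.8% and 29.4% of all basophil UMIs. By Scrublet, which scores how much a cell resembles 2 cells added together, 12 of the 13 S100-rich members with deoxycholic acid and 11 of the 16 in the media control were among the cells with the highest 6% of scores. Among the remaining basophils, 1 with deoxycholic acid and 0 in the media control were. Whether the S100-rich members are 2 cells in 1 droplet was not tested further. Values without them are given for the share, for several gene lists over the same measured genes, and for the genes compared between the libraries whose ratio moved by over 1.5 times or turned direction.

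The share of basophils was lower with deoxycholic acid. They made up 1.01% of kept cells with deoxycholic acid (0.806 to 1.25%) and 1.39% in the media control (1.16 to 1.65%), a ratio of 0.726 (0.544 to 0.965). Without the S100-rich members the ratio was 0.703 (0.514 to 0.956). By the sums of the rule itself, and so as a description, the smaller sum was 50 or more in 38 members with deoxycholic acid and 84 in the media control, 20 to 50 in 27 and 28, and 10 to 20 in 19 and 14. The 10 cells just inside the threshold had a smaller sum of 10.7 to 13.3, and the 10 just outside had 7.95 to 9.97. The members just inside had a median Prss34 of 4.29 per 10000, Mcpt8 of 11.5 and Cpa3 of 8.05, and those just outside had medians of 0, 8.01 and 14.5. With every cell thinned to 5000 UMIs the ratio was 0.535 (0.366 to 0.773), from 45 and 92 basophils. Thinning leaves out shallower cells, and 36 members with deoxycholic acid and 33 in the media control had fewer than 5000 UMIs.

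The 4 rule genes chose the members, so their levels are a description. Prss34 encodes mast cell protease 11, a tryptase of basophils. Its level in single members ran from 0 through a median of 7.51 to 182 UMIs per 10000 with deoxycholic acid, and from 0 through 32.6 to 229 in the media control. The ranges overlapped almost wholly, but more of the deoxycholic acid members sat at the low end. Summed, Prss34 was at 2675 CPM with deoxycholic acid and 4623 CPM in the media control, a log2 ratio of -0.79 (-0.86 to -0.72). Mcpt8, mast cell protease 8, the granzyme-like protease that marks mouse basophils, ran from 6.60 through a median of 56.0 to 633 per 10000 with deoxycholic acid and from 0 through 74.3 to 303 in the media control. Its sums were 8499 and 7914 CPM, a log2 ratio of 0.10. The carboxypeptidase gene Cpa3 was at 3046 CPM with deoxycholic acid and 3065 CPM in the media control (4047 and 3880 CPM without the S100-rich members). Hdc, whose enzyme makes histamine from histidine, was at 910 and 811 CPM.

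Since Prss34 enters both sums of the rule, how it is spread among the members is also a description. It was at 10 or more UMIs per 10000 in 39 of 84 members with deoxycholic acid (46.4%, 35.5 to 57.6%) and in 86 of 126 in the media control (68.3%, 59.4 to 76.3%). At 46.9 or more, where Prss34 was highest, lay 17 members with deoxycholic acid (20.2%, 12.3 to 30.4%) and 53 in the media control (42.1%, 33.3 to 51.2%). The value of 10 was chosen after the levels were seen. Without the S100-rich members the Prss34 log2 ratio over all basophils was -0.46 (-0.54 to -0.38), from 3768 CPM with deoxycholic acid and 5186 CPM in the media control. At 2000 UMIs per cell, Prss34 was detected in 63.8% of 80 basophils with deoxycholic acid and in 78.9% of 123 in the media control, and in 0.0738% and 0.136% of the other kept cells. Unthinned, a Prss34 UMI was present in 72.6% and 84.1% of basophils. Before thinning, an Mcpt8 UMI was present in 27.8% of other kept cells with deoxycholic acid and 29.4% in the media control. Prss34 at 10 or more meets the rule by itself, so cells outside the rule are low in Prss34 by construction. Mcpt8 alone does not meet the rule, and its values here were not thinned. Which gene is more restricted to basophils therefore cannot be read from these values.

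**Figure D1:**
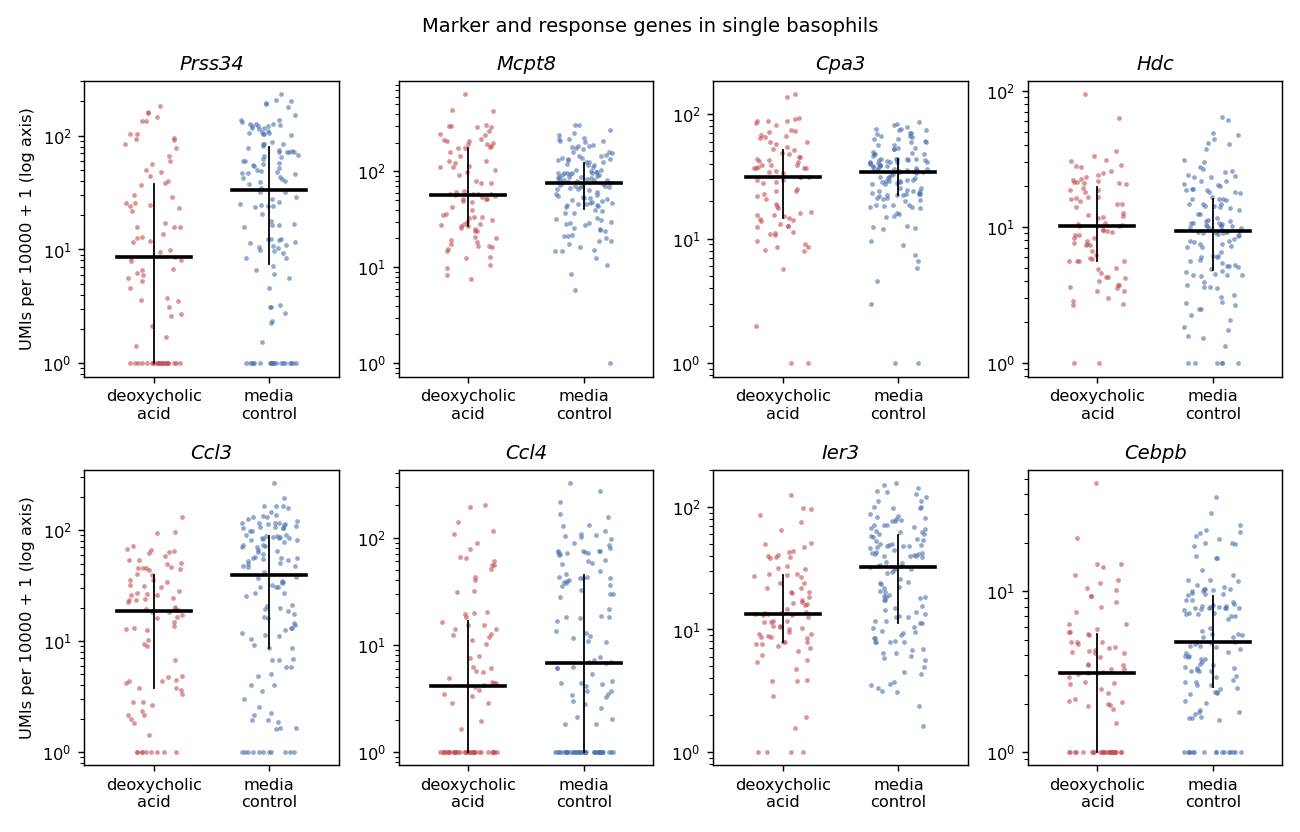
UMIs per 10000 plus 1 (log axis) of 8 genes in single basophils, 84 with deoxycholic acid at the left and 126 of the media control at the right of each panel. Points are cells, the thick bar is the median and the thin line the quartiles; Prss34, Ccl3 and Ier3 medians are lower with deoxycholic acid, while Cpa3 and Hdc medians lie close together.

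Prss34 and Mcpt8 varied together across single members, with a Spearman rho of 0.67 over 84 cells with deoxycholic acid and 0.61 over 126 in the media control. Both genes enter the rule and the cells share libraries, so this is a description. The next genes closest to Prss34 were Ssr4, Rps18, Cst3 and Crip1, at rho between 0.35 and 0.44 in either library. The lowest were Rplp1, Gm42418, Fgfr1, Itgam and Zeb2. Mcpt8 went most closely with Crip1 (0.57 in both), Cpa3 (0.60 with deoxycholic acid and 0.39 in the media control), Srgn and Lgals1. Its lowest were Cebpe, a C/EBP factor of late granulocyte formation, Pgp, Agps, Hsp90aa1 and Chil3.

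The promoters of the rule genes are shown because these genes define the cells and because GATA2 is the lineage factor of basophils. Each run covers 250 bases before to 50 after the gene's start, from RefSeq on GRCm38.p6, which need not be the build of the counts. Capitals mark a match to AGATAA on either strand, or to the same letters with T first, G last or both, which GATA factors bind. The windows lie at chr17:25298144-25298443 (plus strand) for Prss34, chr14:56085148-56085447 (minus) for Mcpt8, chr3:20242132-20242431 (minus) for Cpa3 and chr2:126618629-126618928 (minus) for Hdc.

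Prss34: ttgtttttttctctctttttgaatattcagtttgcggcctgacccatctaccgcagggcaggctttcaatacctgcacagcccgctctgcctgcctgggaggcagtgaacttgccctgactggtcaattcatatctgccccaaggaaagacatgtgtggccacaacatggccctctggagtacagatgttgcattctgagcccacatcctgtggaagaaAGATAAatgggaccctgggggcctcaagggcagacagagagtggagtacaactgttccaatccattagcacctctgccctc

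Mcpt8: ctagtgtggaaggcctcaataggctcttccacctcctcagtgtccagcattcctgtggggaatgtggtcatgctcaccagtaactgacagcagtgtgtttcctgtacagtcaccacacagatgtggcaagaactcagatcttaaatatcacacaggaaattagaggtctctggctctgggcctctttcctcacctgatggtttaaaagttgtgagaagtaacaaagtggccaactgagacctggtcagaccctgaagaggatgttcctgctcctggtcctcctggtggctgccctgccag

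Cpa3: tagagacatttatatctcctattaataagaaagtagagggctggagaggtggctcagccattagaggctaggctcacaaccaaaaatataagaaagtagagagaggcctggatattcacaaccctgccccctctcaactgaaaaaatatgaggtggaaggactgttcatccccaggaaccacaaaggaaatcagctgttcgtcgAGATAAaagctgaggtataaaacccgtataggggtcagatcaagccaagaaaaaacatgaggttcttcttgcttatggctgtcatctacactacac

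Hdc: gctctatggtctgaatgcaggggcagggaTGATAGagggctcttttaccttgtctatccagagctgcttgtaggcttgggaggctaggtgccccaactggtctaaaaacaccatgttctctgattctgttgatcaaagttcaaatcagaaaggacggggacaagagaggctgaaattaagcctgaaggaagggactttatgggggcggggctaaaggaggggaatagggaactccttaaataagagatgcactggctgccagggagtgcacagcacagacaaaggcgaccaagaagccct

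Prss34 had 1 match, at -31 from the start, Cpa3 had 1 at -46 and Hdc had 1 at -221, and the Mcpt8 window had none. The window of Ms4a2, the β chain of the IgE receptor, held 3, at -224, -37 and -11. Of 32851 promoters of the same length, 29.8% held at least 1 match. None of the 5 windows held TTGCNNAA, letters bound by C/EBP factors and present in 10.8% of promoters. Prg2 and Ccl4, the other given markers, are named without a sequence.

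The label was checked against markers that the rule did not use, within each library. Of 15 such basophil markers, Prg2 among them, 14 were higher in members than in the other kept cells. That count is not particular to basophil markers. By the same measure 8 of 9 eosinophil markers and 21 of 21 immediate early genes were higher in members, against 1 of 13 neutrophil markers. Gata2 was at 321 CPM in basophils against 1.19 CPM in other kept cells with deoxycholic acid, and at 392 against 1.67 CPM in the media control. Ms4a2 was at 265 against 1.21 CPM with deoxycholic acid and at 299 against 1.35 CPM in the media control. Mast cell markers were nearly absent: 10 of 12 had no UMI in any member, the chymases and tryptases other than Cma1 among them, and the 12 summed to 75.7 CPM with deoxycholic acid and 27.1 CPM in the media control. Kit, the stem cell factor receptor, made up most of this, at 57.5 and 26.3 CPM. None of the 8 markers of the stromal feeder was detected.

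Prg2, the major basic protein of eosinophil granules and a given marker, did not behave as a marker of the whole set. Its sums were 5912 CPM with deoxycholic acid and 5066 CPM in the media control. A Prg2 UMI was present in 23 of 84 members with deoxycholic acid and 30 of 126 in the media control, and the 5 highest cells held 61.8% and 65.2% of its UMIs. At or above 20 UMIs per 10000, a value chosen after the levels were seen, lay 14 members with deoxycholic acid (16.7%, 9.42 to 26.4%) and 17 in the media control (13.5%, 8.06 to 20.7%). These 31 cells held 99.1% and 99.7% of the Prg2 UMIs, and 1 of them, with deoxycholic acid, was S100-rich.

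The Prg2-rich members also carried other eosinophil granule genes. Over both libraries, Prg3, a homologue of Prg2, was at 2310 CPM in them against 29.4 CPM in the remaining basophils. Epx, eosinophil peroxidase, was at 323 against 0.599 CPM. Ear6, an eosinophil-associated ribonuclease from a family of near-identical copies, was at 620 against 4.19 CPM. Arsb and Ctsh, lysosomal enzymes, were at 729 against 71.9 CPM and 262 against 21.6 CPM. They had Cpa3 at 3191 against 3028 CPM and Ms4a2 at 230 against 300.2 CPM, but had less Prss34, at 1520 against 4487 CPM, and Mcpt8, at 4690 against 8887 CPM. The chemokines Ccl4 (144 against 1865 CPM) and Ccl3 (459 against 3056 CPM) were low in them, as was Fcer1a, the IgE-binding chain, at 8.01 against 94.1 CPM. The members therefore include a range of cells with eosinophil granule genes, which go against the label basophil in part. Outside the rule Prg2 was at 4.50 CPM with deoxycholic acid and 16.6 CPM in the media control.

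**Figure D2:**
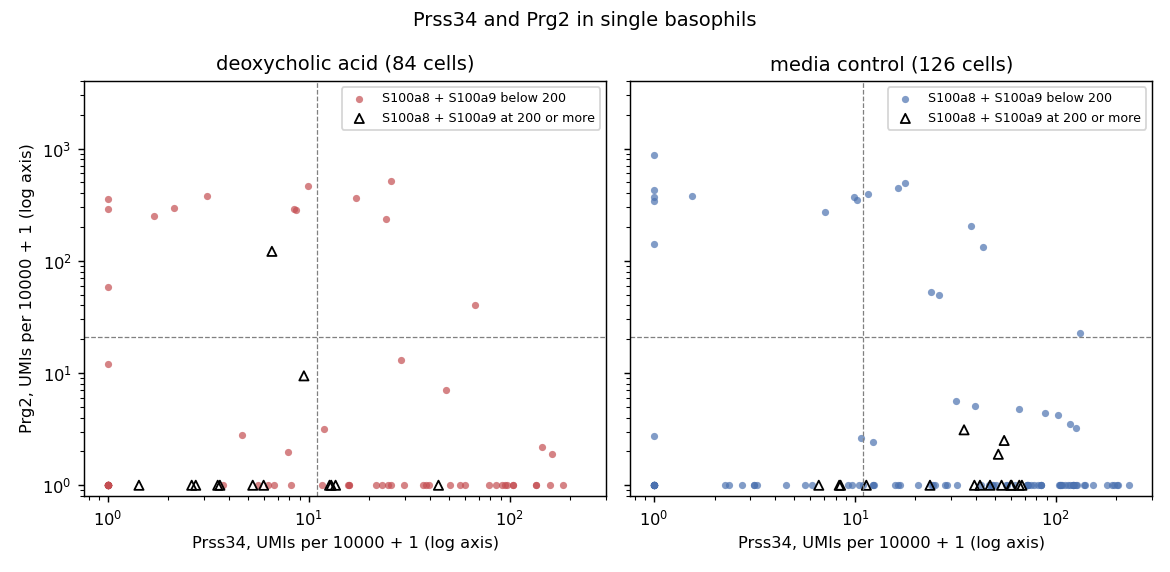
Prss34 (horizontal) against Prg2 (vertical) in single basophils, both as UMIs per 10000 plus 1 on log axes, with deoxycholic acid at the left and the media control at the right. Open triangles are members with S100a8 and S100a9 together at 200 or more, and dashed lines mark Prss34 of 10 and Prg2 of 20; 14 and 17 cells lie above the Prg2 line.

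For comparisons across genes, 2574 genes passed a filter on low values, which asked for 20 CPM, 50 UMIs and 20 basophils with a UMI in whichever library was higher. With deoxycholic acid, 11 of them (0.427%) were at least 2-fold higher and 48 (1.86%) at least 2-fold lower. The log2 ratio was above 0 for 38.3% and below 0 for 61.7%, with a median of -0.09, and 95% of genes lay between -0.91 and 0.67. These shares depend on the filter. Its 50 UMIs are a higher CPM in the smaller deoxycholic acid sum, so genes lower with deoxycholic acid passed more easily. With no filter on low counts, 935 of 10830 genes were at least 2-fold higher and 760 at least 2-fold lower. The median was then 0.07. In the other kept cells 4665 genes passed, with a median of 0.05. There 0.107% were at least 2-fold higher and 0.343% at least 2-fold lower, with 57.4% above 0 and 42.6% below. Those sums held 130208266 UMIs with deoxycholic acid and 181397584 in the media control. Counting error therefore spreads the ratios less there than in basophils. Longer transcripts tended to higher ratios, with rho 0.194 across genes in basophils and 0.420 in other kept cells. The part of transcript length in any single ratio was not tested.

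The chemokine genes Ccl3 and Ccl4 were lower with deoxycholic acid, while the list they belong to was mixed. Of 19 cytokine and chemokine genes, 11 were measured, 4 above 0 and 7 below, close to the 61.7% of all genes that were below 0. The median log2 ratio was -0.37 (-0.32 without the S100-rich members), against 0.04 for the same genes in other kept cells. Among members with Prss34 at 10 or more, 7 of the 11 were above 0 and the median was 0.13. Ccl3, a chemokine that draws in monocytes and neutrophils, ran from 0 through a median of 17.8 to 130 UMIs per 10000 with deoxycholic acid, and from 0 through 38.9 to 265 in the media control. The upper quartile with deoxycholic acid, 38.7, was about the median of the media control. Its sums were 1509 CPM with deoxycholic acid and 3154 CPM in the media control, a log2 ratio of -1.06 (-1.16 to -0.97), and in other kept cells, where it was scarce, it was at 28.4 and 45.3 CPM. Ccl4, its close relative, was at 1076 and 1804 CPM (-0.75, -0.86 to -0.63).

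The S100-rich members were the exception for Ccl3. In those 13 and 16 cells it was at 881 CPM with deoxycholic acid and 672 CPM in the media control, a log2 ratio of 0.39, and without them the ratio was -1.16 (-1.27 to -1.05). Tnf, tumour necrosis factor, was at 22.4 CPM with deoxycholic acid and 52.6 CPM in the media control (-1.23, -2.11 to -0.43), from 16 and 70 UMIs. The neutrophil attractant Cxcl2, the most abundant of the list, was at 3363 CPM with deoxycholic acid and 4359 CPM in the media control. Csf1, the macrophage growth factor, was at 136 and 187 CPM, and Osm, oncostatin M, at 237 and 310 CPM. Ccl6, another chemokine of myeloid cells, was on the other side, at 2734 and 2411 CPM, as was Tgfb1, at 160 and 131 CPM. Il6 was at 150 CPM with deoxycholic acid and 142 CPM in the media control, but at 162 and 187 CPM without the S100-rich members, and Hgf, hepatocyte growth factor, at 356 and 352 CPM. Il4, the cytokine by which basophils act on T and B cells, had 16 and 36 UMIs and did not pass the filter.

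Genes that NF-kappaB induces and that feed back on it were lower in part. Of 15 such genes, 6 were measured and all 6 were below 0, where 61.7% of all genes that passed the filter were. Their median was -0.37, against -0.09 for all those genes and 0.02 for the same 6 in other kept cells. With the S100-rich members left out, 4 of the 6 were below 0, with a median of -0.34, and Nfkb1 and Traf1 were above. Among members with Prss34 at 10 or more, 4 of the 6 were also below 0, with a median of -0.04. Nfkbia, the inhibitor that holds NF-kappaB in the cytoplasm, ran from 0 through a median of 9.17 to 60.9 per 10000 with deoxycholic acid and from 1.15 through 17.2 to 92.0 in the media control. It was at 972 CPM with deoxycholic acid and 1464 CPM in the media control (-0.59, -0.72 to -0.47). Tnfaip3, the deubiquitinase A20, was at 344 and 455 CPM, and Rel, an NF-kappaB subunit, at 60.3 and 96.2 CPM. Icam1, an adhesion molecule, had 0 UMIs with deoxycholic acid and 26 in the media control, at least 4.64-fold lower against a floor of 3 counts in the deoxycholic acid sum. Tnfaip2 was opposite, at 99.6 and 30.8 CPM (42.1 and 5.32 CPM without the S100-rich members), but was found in too few cells to pass the filter.

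Immediate early genes split. Of 21, 17 were measured, 5 above 0 and 12 below, with a median of -0.11 (-0.18 without the S100-rich members) against 0.30 for the same genes in other kept cells. The list as a whole was near all filtered genes in basophils, at 61.7% below 0 and a median of -0.09. Ier3, a stress-induced survival gene, ran from 0 through a median of 12.5 to 124 per 10000 with deoxycholic acid and from 0.629 through 31.2 to 155 in the media control. The lower quartile in the media control was 10.2, close to the median with deoxycholic acid. Its sums were 1480 and 2523 CPM (-0.77, -0.87 to -0.67). Junb, an AP-1 subunit, was at 518 CPM with deoxycholic acid and 880 CPM in the media control. Zfp36, tristetraprolin, which speeds the decay of cytokine messages, was at 281 and 543 CPM (-0.95). The AP-1 genes Fos (2574 and 2626 CPM) and Jun (2394 and 2368 CPM) lay near 0 in basophils, at log2 ratios of -0.03 and 0.02 (-0.08 and -0.17 without the S100-rich members), while in other kept cells their ratios were 0.53 and 0.56.

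The Krüppel-like factors of this list were split. Klf2 and Klf6 were below 0, while Klf4 and Klf10 were higher with deoxycholic acid. Klf4, a factor of monocyte formation, was at 114 CPM with deoxycholic acid and 36.1 CPM in the media control (1.66, 1.12 to 2.20), from 81 and 48 UMIs. Klf10, a TGF-β-induced repressor, was at 125 and 54.9 CPM (1.19, 0.72 to 1.65), and at 35.6 and 19.0 CPM in other kept cells.

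Genes of glycolysis and hypoxia were higher with deoxycholic acid: of 20, 14 were measured and 13 were above 0, with a median of 0.34 against 0.22 in other kept cells. All 14 were above 0 without the S100-rich members, with a median of 0.39. Without the Prg2-rich members 10 of the 14 were above 0, and 10 were among members with Prss34 at 10 or more. In members with fewer than 3 G2 and M phase UMIs 9 were, and the other alternatives over these genes gave 12 to 14. Of all filtered genes in basophils, 38.3% were above 0. In other kept cells 12 of these 14 genes were above 0, against 57.4% of all filtered genes there. Hk2, the inducible hexokinase, was at 460 CPM with deoxycholic acid and 229 CPM in the media control (1.01, 0.78 to 1.23). Per cell it ran from 0 through a median of 2.88 to 76.0 with deoxycholic acid and from 0 through 1.73 to 27.2 in the media control, so the groups overlapped. The 5 highest cells held 36.9% of its UMIs with deoxycholic acid and 20.7% in the media control. Bnip3, a mitophagy receptor induced by low oxygen, was at 107 and 39.8 CPM (1.42, 0.90 to 1.95). Bnip3 was at 118 and 22.4 CPM (2.39, 1.64 to 3.20) without the S100-rich members. The aldolase gene Aldoa was at 1021 and 710 CPM, Eno1, an enolase, at 410 and 304 CPM, and Pkm, pyruvate kinase, at 770 and 593 CPM. Ldha, lactate dehydrogenase, was the measured gene below 0, at 731 and 753 CPM (783 and 732 CPM without the S100-rich members), while Gapdh was at 2261 and 2229 CPM.

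**Figure D3:**
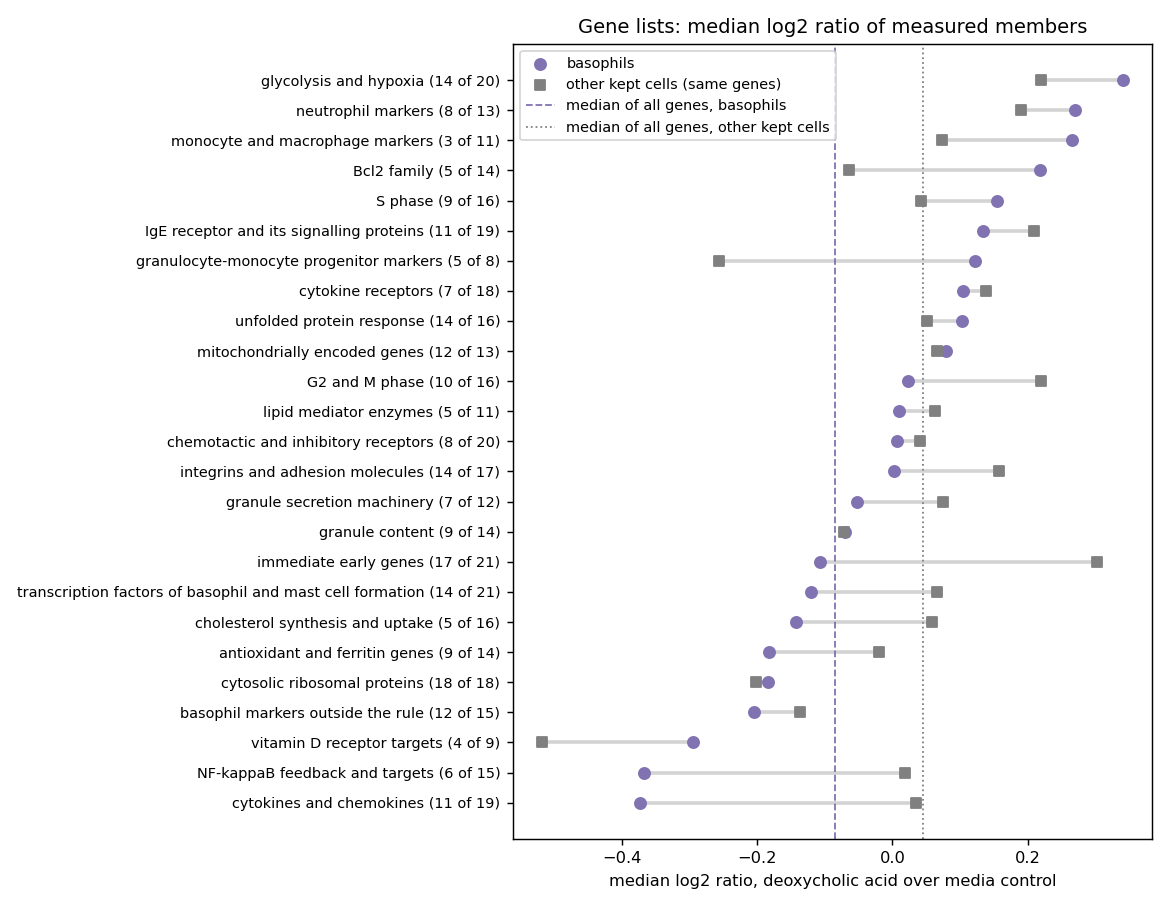
Median log2 ratio, deoxycholic acid over media control, of the measured members of each gene list with at least 3 of them, in basophils (circles) and for the same genes in other kept cells (squares). Vertical lines are the medians of all genes that passed the filter, -0.09 in basophils (dashed) and 0.05 in other kept cells (dotted); glycolysis and hypoxia is highest in basophils at 0.34, and NF-kappaB genes and cytokines lie at -0.37.

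Of 21 transcription factors of basophil and mast cell formation, 14 were measured, 4 above 0 and 10 below, with a median of -0.12 (-0.28 without the S100-rich members). In all basophils this was close to all genes that passed the filter, of which 61.7% were below 0, with a median of -0.09. Cebpb, C/EBPβ, was at 222 CPM with deoxycholic acid and 428 CPM in the media control (-0.95), and in other kept cells its log2 ratio was -0.92. At 5000 UMIs per cell it was detected in 39.6% of 48 basophils with deoxycholic acid and in 80.6% of 93 in the media control, and in 43.2% and 64.3% of other kept cells. Gata2 was at a log2 ratio of -0.29 (-0.52 to -0.06). Runx1, needed for basophil formation in mice, was at 99.6 and 137 CPM (-0.46), and Lmo4, a LIM-domain cofactor, at 309 and 254 CPM. The vitamin D receptor is named in the series title, and of 9 of its target genes 4 were measured, 1 above 0 and 3 below, with a median of -0.30 in basophils and -0.52 in other kept cells.

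The IgE receptor and the proteins that signal from it differed little. Of 19, 11 were measured, 7 above 0 and 4 below, with a median of 0.13 (0.08, with 6 above and 5 below, without the S100-rich members). None was past 2-fold, which is not particular to this list. Of all genes that passed the filter, 0.427% were at least 2-fold higher and 1.86% at least 2-fold lower. Fcer1a was at 60.3 CPM with deoxycholic acid and 87.9 CPM in the media control (-0.54, -1.08 to -0.03), Ms4a2 at -0.17 (-0.43 to 0.08), and Fcer1g, the γ chain, at 1741 and 2028 CPM. The tyrosine kinases Lyn, which starts the signal, and Syk, which carries it on, were at 105 and 98.5 CPM and at 75.7 and 56.4 CPM. Lyn was at 95.4 and 105 CPM without the S100-rich members. Among 14 granule content genes 9 were measured, 4 above 0 and 5 below. Srgn, serglycin, the proteoglycan that packs granule proteases, was at 3332 CPM with deoxycholic acid and 4203 CPM in the media control. Cathepsin G (Ctsg) was at 1585 and 2504 CPM, at nearly the same log2 ratio in basophils (-0.66) as in other kept cells (-0.55), and the tetraspanin gene Cd63, a sign of degranulation when its protein is at the surface, was at 2412 and 2532 CPM (3096 and 3019 CPM without the S100-rich members). Of 12 secretion genes 7 were measured with a median of -0.05, and of 11 lipid mediator genes 5 with a median of 0.01 (-0.06 without the S100-rich members).

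Receptors for growth factors showed small differences. Of 18 cytokine receptor genes 7 were measured, 5 above 0, with a median of 0.10 (0.03 without the S100-rich members). Il3ra, the chain that binds interleukin 3, the main basophil growth factor, was at 96.8 CPM with deoxycholic acid and 61.6 CPM in the media control (0.65, 0.17 to 1.13). Its signalling partner Csf2rb was at 484 and 442 CPM, and Il1rl1, the interleukin 33 receptor, at 149 and 147 CPM (186 and 197 CPM without the S100-rich members). Of 17 adhesion genes 14 were measured, 7 on each side of 0. The β2 integrin gene Itgb2 was at 168 and 94.7 CPM (0.83). The tetraspanin gene Cd9 was at 105 and 192 CPM (-0.87), and Cd69, an early activation antigen, at 407 and 538 CPM. Of 20 chemotactic and inhibitory receptor genes 8 were measured, 4 on each side (2 above and 6 below without the S100-rich members), among them Cd200r3, an activating receptor of basophils and mast cells in mice, at 136 and 198 CPM.

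Most of the genes named here for the largest ratios were of low level, with Gm10076 an exception. After Klf4, Bnip3 and Klf10, the highest were Ppp6r1 (85.6 CPM with deoxycholic acid and 38.3 CPM in the media control), the predicted gene Gm10076 (1511 and 699 CPM, with nearly the same ratio in other kept cells) and Xpc, a DNA repair gene (129 and 60.1 CPM). Upp1, uridine phosphorylase, was at 81.3 and 40.6 CPM in basophils and at 11.4 and 11.8 CPM in other kept cells. The lowest were Med30, a Mediator subunit, at 9.82 and 43.6 CPM from 7 and 58 UMIs (6.65 and 44.7 CPM, log2 ratio -2.75, without the S100-rich members), Hacd2, a fatty acid elongation enzyme, at 9.82 and 39.8 CPM, and the small nucleolar RNA host gene Snhg9. Psmb9, an immunoproteasome subunit, was at 15.4 and 42.1 CPM, and Hilpda, a lipid droplet protein induced by low oxygen, at 21.0 and 56.4 CPM, opposite to Hk2 and Bnip3. Without the S100-rich members, all 11 genes 2-fold higher were still above 0 and 7 still past 2-fold, and all 48 lower ones were still below 0 and 36 past 2-fold.

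**Figure D4:**
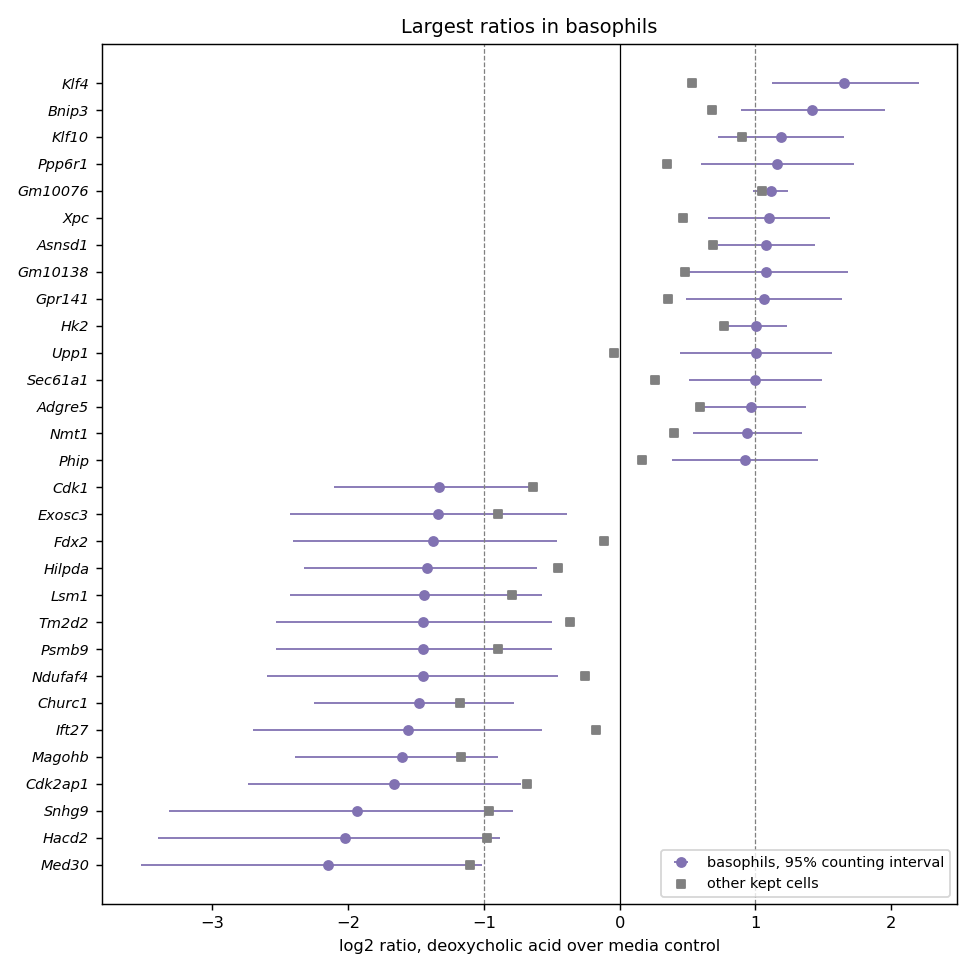
Log2 ratio, deoxycholic acid over media control, of the 15 genes with the highest and the 15 with the lowest ratios in basophils (circles, with 95% counting intervals) and of the same genes in other kept cells (squares). Dashed lines mark 2-fold. Klf4 is highest at 1.66 and Med30 lowest at -2.15. Most other kept cells' values lie nearer to 0, but the genes were picked by their ratios in basophils.

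Of the members deep enough to be scored, about as many as not carried G2 and M phase RNA. Left unscored were 36 members with deoxycholic acid and 33 in the media control, which had fewer than 5000 UMIs. The S100-rich members were not left out of these shares. At 5000 UMIs per cell, 3 or more UMIs of G2 and M phase genes were found in 28 of 48 basophils with deoxycholic acid (58.3%, 43.2 to 72.4%) and in 44 of 93 in the media control (47.3%, 36.9 to 57.9%), so the intervals overlapped. The other kept cells were at 78.8% and 77.8%. Within the G2 and M list of 16 genes, 10 were measured, 5 on each side: Mki67 was at 334 CPM with deoxycholic acid and 219 CPM in the media control, and Cdk1, the mitotic kinase, at 28.1 and 70.6 CPM. Cytosolic ribosomal protein genes were below 0 for 16 of 18, with a median of -0.18 in basophils and -0.20 in other kept cells. Of all filtered genes in basophils, 61.7% were below 0, with a median of -0.09. With members above 2 times the median UMIs removed, 10 of the 18 were below 0, with a median of -0.01.

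Neutrophil RNA lay beside all of these results. The 13 neutrophil markers summed to 58534 CPM in basophils with deoxycholic acid and 52498 CPM in the media control, against 191446 and 188498 CPM in other kept cells, and the S100-rich members held 97.5% and 96.7% of the S100a8 and S100a9 UMIs.

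The main differences were followed through ranges of the members. Ccl3 was lower with deoxycholic acid in every range drawn except the S100-rich one. Cebpb was lower in all of them, though in the 14 and 17 Prg2-rich cells at 160 and 192 CPM its interval spanned 0 (-0.27, -1.04 to 0.48). Hk2 was higher in most, but in members with 3 or more G2 and M UMIs it was at 188 CPM with deoxycholic acid and 219 CPM in the media control (-0.22, -0.62 to 0.17), and in the Prg2-rich cells at 179 and 202 CPM. Klf10 was higher in 8 of the 10 ranges. It was at 40.3 and 53.9 CPM in members with middle levels of Prss34, from 10 and 30 UMIs, and at 57.6 and 59.6 CPM in the Prg2-rich cells, from 9 and 13 UMIs. Ier3 was lower in 9 of the 10, and in the S100-rich members it was at 790 and 672 CPM (0.23, -0.04 to 0.50). Nfkbia was below 0 in all 10, though at -0.01 in the Prg2-rich cells (615 and 618 CPM). The difference between ranges was not tested.

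**Figure D5:**
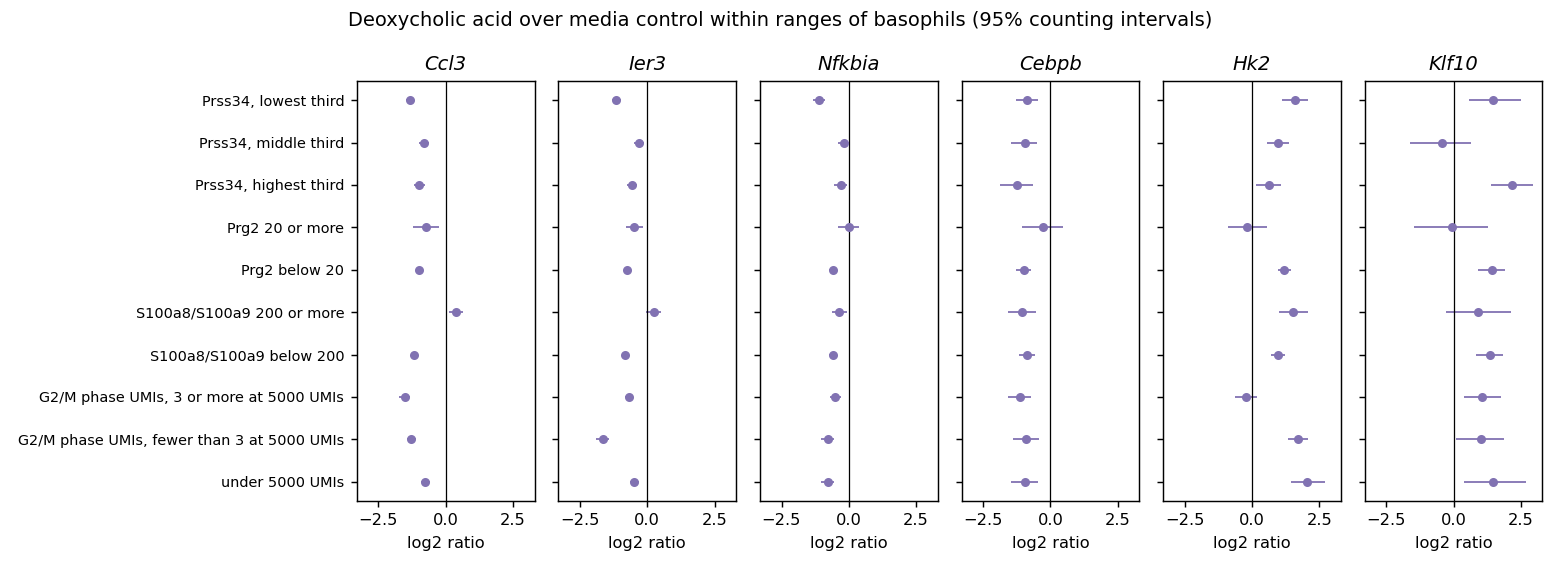
Log2 ratio, deoxycholic acid over media control, of 6 genes (one panel each) within 10 ranges of basophils, with 95% counting intervals. Ranges overlap in their cells; Ccl3 is below 0 in 9 of the 10 ranges, at 0.39 in the S100-rich members, and Cebpb is below 0 in all 10.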

How the data were processed

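Per the labels' protocols, lineage-negative cells were captured with 10x Genomics Chromium 3′ version 3.1 reagents, with 8000 cells targeted per sample. The submitters' processing notes list Cell Ranger 6.0. Neither genome build nor annotation was named (not given in the sources used here). Raw UMI counts, not normalized, were what the authors deposited, in 1 table of 17866 barcodes by 32285 genes. Since a cell's name shows its group and not its sample, each group was handled as 1 library and nothing was tested between groups.

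Members and gene lists were chosen with earlier results of these data known. UMIs were summed over the basophils of a library and divided by the library's basophil total (CPM). Log2 ratios are deoxycholic acid over media control, with intervals from the exact binomial split of a gene's UMIs. The tables were made with Python 3.11.15, numpy 2.4.6, scipy 1.17.1 and pandas 2.3.3, and the ratio was checked on simulated counts. Named genes were the given markers, the 15 highest and 15 lowest ratios past the filter, of each list the 4 most abundant members and any past 2-fold, the 10 genes highest over other kept cells, and the 5 genes with highest and lowest rho with Prss34 and with Mcpt8. Other list members named (among them Runx1, Il3ra, Syk, Cd9, Icam1 and Tnfaip2) and the cutoffs for Prg2, S100a8 with S100a9, and Prss34-bearing cells were chosen after their values were seen. Scrublet (scanpy 1.11.5) marked 4 cells in each library with its own threshold, so it had not worked as a caller, no cell was removed in the main analysis, and the highest 6% of scores were left out as an alternative. Levels are per UMI, not per length, which fits a 3′ assay. A list gene counts as measured when it passed the filter on low values. Under each alternative other than the one without a filter, list medians were taken over the genes measured in all basophils, a choice made after the data were seen.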

Additional observations from a re-analysis of the deposited data

Results flagged for a closer look

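For 5 named genes the log2 ratio of deoxycholic acid over media control in basophils lay on the other side of 0 from that in the other kept cells, with both counting intervals away from 0. The difference between the 2 kinds of cells was not tested. Cxcl2 was at -0.37 in basophils and 0.12 in other kept cells, but at 0.22 among members with Prss34 at 10 or more, and Rel at -0.67 and 0.16. Hspa5, the chaperone BiP of the endoplasmic reticulum, was at -0.56 in basophils (924 CPM with deoxycholic acid and 1360 CPM in the media control) and 0.09 in other kept cells. Ccl6 was at 0.18 in basophils and -0.16 in other kept cells. Elane, neutrophil elastase, was at 0.72 in basophils (1137 CPM with deoxycholic acid and 692 CPM in the media control) and -0.20 in other kept cells. The 5 highest basophils of each library held 83.5% of the Elane UMIs with deoxycholic acid and 75.6% in the media control. With the highest 6% of Scrublet scores left out the Elane ratio was -1.85, and over all alternatives it ran from that value to 5.15. Without the S100-rich members Elane was at 75.4 and 36.2 CPM, from 34 UMIs in each library.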

How the results depend on the processing

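The share ratio of basophils stayed below 1 under all 12 alternatives. It was 0.535 with cells thinned to 5000 UMIs and 0.494 where only members with Prss34 at 10 or more were counted, the second chosen after seeing the data, as were thinning to 2000 UMIs and the removal of S100-rich and of Prg2-rich members. With members above 2 times the median UMIs removed it was 0.733 and its interval, 0.525 to 1.02, included 1. The counts of genes 2-fold higher and lower, 11 and 48, were 6 and 31 without members above 2 times the median UMIs, 20 and 82 with the mean over cells, and 935 and 760 with no filter on low counts. The higher count was 7 without the S100-rich members, 7 without the members with the highest 10% of neutrophil marker UMIs, 6 among members with Prss34 at 10 or more, and 2 in members with fewer than 3 G2 and M phase UMIs, where 810 genes passed the filter. Ndufaf4, at -1.45, was at 0.28 without members above 2 times the median UMIs. Median-of-ratios scaling moved every log2 ratio by -0.07. Ccl3 ranged from -1.27 to -0.91, Cebpb from -1.12 to -0.75, Hk2 from 0.51 to 1.71, Ier3 from -1.66 to -0.53 and Nfkbia from -0.87 to -0.28 over 14 alternatives. Prss34 ranged from -0.86 to -0.13, the last among members picked by Prss34 itself. Over the same measured genes, the medians of 22 of 25 gene lists had the same sign without the S100-rich members as in all basophils. The 3 others were the unfolded protein response (0.10 in all basophils and -0.11 without them), lipid mediator enzymes (0.01 and -0.06) and chemotactic and inhibitory receptors (0.01 and -0.08). The cytokine and chemokine median ranged from -0.45 to 0.13, with the highest among members with Prss34 at 10 or more, the NF-kappaB median from -0.68 to -0.04, that of glycolysis and hypoxia from 0.25 to 0.45, and that of immediate early genes from -0.56 to 0.04. The causes were not tested. No paired analysis was possible because the cell names carry the group and no replicate. With 1 library in each group, differences between cultures cannot be told apart from the treatment, and genes under about 50 UMIs have wide intervals.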
